A study of Mus musculus with 6 samples.

Results

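The insulin-like growth factor (IGF) system was followed through 8 genes, namely the ligand gene Igf1, the receptor gene Igf1r and the binding protein genes Igfbp2, Igfbp3, Igfbp4, Igfbp5, Igfbp6 and Igfbp7. They were picked by gene symbol out of the 30406 genes that the count tables of all 6 libraries list, and all 8 were present in every table. IGF-1 is a secreted growth factor that binds the receptor tyrosine kinase IGF1R, which signals through insulin receptor substrates to PI3 kinase and AKT. In bone, this axis is known for promoting the growth and differentiation of osteoblasts and growth plate chondrocytes, downstream of growth hormone in part. The binding proteins hold IGFs in the extracellular space and can restrain or prolong their action, and proteases such as PAPP-A cut some of them to free the ligand. IGFBP7 binds insulin-like growth factors weakly and is best known from vessel walls.

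Single-nucleus RNA-seq was performed on the periosteum of C57BL6 wild-type mice (C57BL/6ScNj in the study's methods), 12 weeks old, males and females mixed, with no mutant allele and no agent under study in any group. By the study's methods, mice with a fracture received ketamine and medetomidine for surgery, atipamezole to wake and buprenorphine against pain. No such drugs are described for uninjured mice. The 4 groups were uninjured periosteum with the marrow flushed out (2 libraries, each a pool of 4 mice), and periosteum with hematoma or callus at day 3 (2 libraries), day 5 (1 library) and day 7 (1 library) after an open, non-stabilized tibial fracture (pools of 4 to 9 mice). The groups thus differ in the tissue dissected and in surgery with its drugs as well as in time, and these cannot be told apart. P-values measure the spread between libraries that are pools of mice, and days 5 and 7 have no replicate and no test.

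The libraries held 655 to 4712 barcodes and 1499281 to 29796296 UMIs, 13551 barcodes in all, and 18 of 13533 distinct barcode sequences occurred in more than 1 library. After the filters on nuclei and the removal of muscle clusters, 6000 nuclei formed 23 clusters, of which 2 clusters with 345 nuclei stayed without a name. Clusters were built without any IGF gene among the features and were named from marker genes, for example Pi16, Ly6a, Cd34 and Dpp4 for skeletal stem/progenitor cells (SSPC-like) and Postn, Aspn and collagens for injury-induced fibrogenic cells (IIFC-like). The name pericyte-like covers pericytes and smooth muscle cells together, since 1 marker list served both. It joins a cluster of 138 nuclei with Rgs5 and Abcc9 among its top genes and a cluster of 113 nuclei with Myh11, Acta2 and Myocd. Levels were not read for these clusters apart. Stromal nuclei below are those of 5 named populations, the chondrocyte-like, osteoblast-like, IIFC-like, SSPC-like and fibroblast-like ones. Their number was 84, 301, 108, 243, 1003 and 662 in uninjured replicates 1 and 2, day 3 replicates 1 and 2, day 5 and day 7, an order kept in all lists of 6 values below. Levels are counts scaled to 1e+06 UMIs (CPM) from the UMIs of a population in a library, given for at least 20 nuclei unless said otherwise, with exact Poisson 95% intervals that cover counting error only. A summed level cannot tell fewer cells of a kind from less RNA per cell. UMI counts are not corrected for gene length, so levels are compared between populations and libraries, never between genes.

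The genes lie on mouse build GRCm38 as follows. Igf1 (ENSMUSG00000020053) spans chr10:87858265-87937042 on the plus strand, where the antisense gene Igf1os shares 5117 bases with it. Igf1r (ENSMUSG00000005533) spans chr7:67952827-68233668 on the plus strand. Igfbp2 (ENSMUSG00000039323) spans chr1:72824503-72852474 on the plus strand, and Igfbp5 (ENSMUSG00000026185) spans chr1:72857932-72874884 on the minus strand. These neighbours are 5457 bases apart. Igfbp3 (ENSMUSG00000020427) spans chr11:7206086-7213923 on the minus strand and Igfbp4 (ENSMUSG00000017493) chr11:99041244-99054392 on the plus strand. Igfbp6 (ENSMUSG00000023046) spans chr15:102144362-102149511 on the plus strand. Igfbp7 (ENSMUSG00000036256) spans chr5:77349240-77408041 on the minus strand and shares 7085 bases with the antisense gene Gm34648 and 85 bases with Polr2b. The use of strand in counting is not stated in the sources used here, so reads of Igf1 and Igfbp7 in those stretches are uncertain.

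In uninjured periosteum, mean Igf1 levels were highest in adipocyte-like (1 library) and fibroblast-like nuclei, and those of Igfbp4 in pericyte-like (131 and 212 CPM) and fibroblast-like (81.1 and 153 CPM) nuclei. Mean Igfbp5 was highest in SSPC-like nuclei, Igfbp6 in Luzp2+ fibroblast-like and SSPC-like nuclei, Igfbp3 in endothelial-like nuclei and Igfbp7 in pericyte-like nuclei. At day 3, Igfbp5 and Igfbp6 were lower in stromal nuclei by over 4 log2 units, and Igf1, Igf1r, Igfbp4 and Igfbp7 did not pass the test there.

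**Figure D1:**
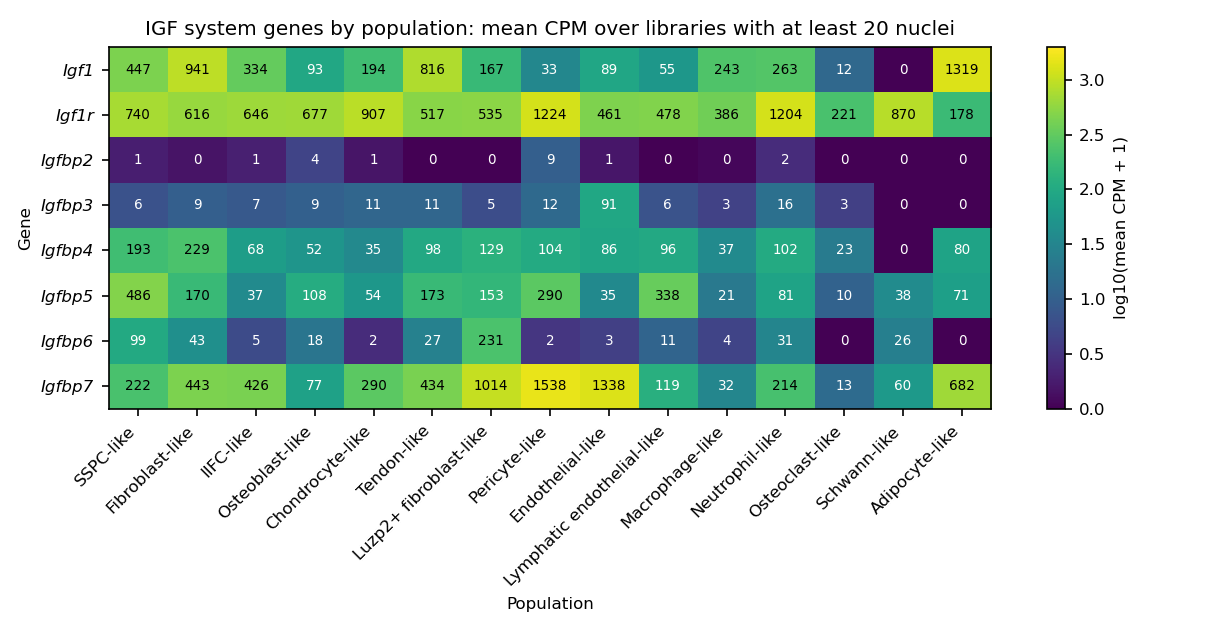
Mean level of each IGF system gene (rows) in each population (columns), printed as mean CPM and coloured by log10 of the mean CPM plus 1, over the libraries with at least 20 nuclei of that population. A row is read along its columns and not against other rows: Igfbp3 stands out in endothelial-like nuclei (mean 90.8 CPM) and Igfbp7 in pericyte-like (1538 CPM) and endothelial-like (1338 CPM) nuclei. Luzp2+ fibroblast-like nuclei came next for Igfbp7 (1014 CPM). The adipocyte-like column rests on 1 library.

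Igf1, the ligand, had its highest mean level over several libraries in fibroblast-like nuclei, at 941 CPM (range 211 to 2700.2 over 6 libraries). Tendon-like nuclei followed at 816 CPM (5 libraries), then SSPC-like at 447 CPM (5 libraries), IIFC-like at 334 CPM (4 libraries), neutrophil-like at 263 CPM (2 libraries, 72.5 and 453 CPM) and macrophage-like at 243 CPM (5 libraries). Fibroblast-like exceeded tendon-like nuclei in 3 of 5 shared libraries (mean log2 ratio 0.38 ± 0.95 SD). The exact two-sided sign-flip permutation p was 0.5 (adjusted p = 0.667 over the 8 genes), with 0.0625 the smallest that 5 libraries allow. No difference could thus have passed this test, which leaves their order undecided. Fibroblast-like nuclei were lower than tendon-like ones in both day 3 libraries and higher in the other shared libraries. The only adipocyte-like sum with enough nuclei, from uninjured replicate 2, held 1319 CPM from 296 Igf1 UMIs in 24 nuclei. Igf1 was low in pericyte-like nuclei (0 to 65.0 CPM in 4 libraries) and was not detected in Schwann-like nuclei of either uninjured library.

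In fibroblast-like nuclei, Igf1 stood at 211 and 613 CPM in the uninjured libraries, 350.0 and 589 CPM at day 3, 2700.2 CPM (2606 to 2797) at day 5 and 1184 CPM (1065 to 1312) at day 7. The day 3 libraries lay between the uninjured libraries, and days 5 and 7 lay above all 4. Markers moved within this cluster. The fibroblast markers summed to 4346 and 9384 CPM before fracture, 2762 CPM at day 5 and 2173 CPM at day 7. The IIFC markers summed to 2059.6 and 3843 CPM before fracture, then 9229 and 5753 CPM. These Igf1 values therefore do not follow a population of fixed markers. The SSPC-like cluster, whose SSPC markers were lower after fracture (values are given with Igfbp5), gave 85.3 and 205 CPM of Igf1 in the uninjured libraries, 472 CPM in day 3 replicate 2, 872 CPM at day 5 and 599 CPM at day 7. Tendon-like nuclei gave 165 CPM in uninjured replicate 2, 470.1 and 789 CPM at day 3, 1557 CPM at day 5 and 1100.1 CPM at day 7. In these populations every fracture library that reached 20 nuclei lay above every uninjured one that did, except in fibroblast-like nuclei at day 3. IIFC-like nuclei, nearly absent before fracture, held 105 and 164 CPM at day 3, 518 CPM at day 5 and 550.1 CPM at day 7, and chondrocyte-like nuclei 200.2 CPM at day 5 and 188 CPM at day 7. Macrophage-like nuclei held 274 CPM in uninjured replicate 2, 26.0 and 164 CPM at day 3, 435 CPM at day 5 and 318 CPM at day 7.

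The cells that carried the Igf1 transcripts also changed with the makeup of the tissue. Stromal nuclei held 45% (exact binomial 95% interval 29.3 to 61.5) of the 40 Igf1 UMIs in clustered nuclei of uninjured replicate 1, and then 48.2%, 48.2%, 46.6%, 76.6% and 78.2% of the Igf1 UMIs of the other libraries. Of the UMIs of all genes in clustered nuclei, they held 129907 of 907763, 1279040 of 3859581, 375151 of 890298, 1761592 of 6868940, 5332400 of 8389752 and 1516477 of 2023248. Adipocyte-like nuclei held 35.0% and 28.7% in the uninjured libraries. Macrophage-like nuclei held 34.5% (32.0 to 37.0) in day 3 replicate 2, where they were 418 nuclei, and 2.50% to 6.49% in the other 5 libraries. Thus the share in macrophage-like nuclei was high in 1 of the 2 day 3 libraries only. In that library they held 3035922 of the 6868940 UMIs of all genes, a larger part than their part of Igf1. The tendon-like share was 25.5% and 13.1% at day 3, then 13.5% and 12.5% at the later days.

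**Figure D2:**
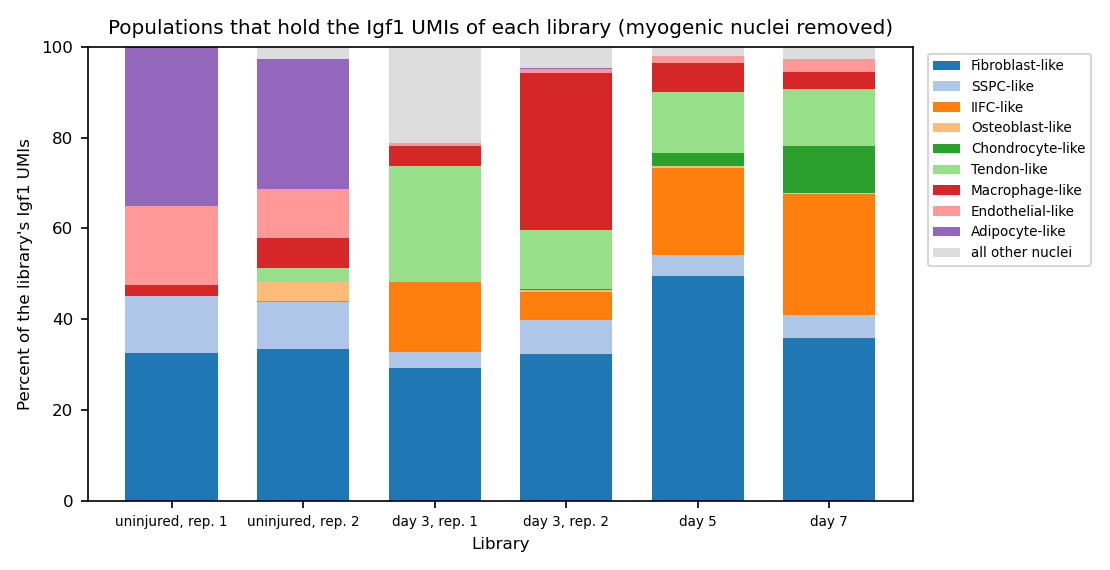
Share of the Igf1 UMIs of each library's clustered nuclei (percent, vertical axis) by the population that held them, for the 6 libraries on the horizontal axis. Stromal populations together held 76.6% at day 5 and 78.2% at day 7, against 45% to 48.2% in the uninjured and day 3 libraries, and macrophage-like nuclei held 34.5% in day 3 replicate 2. Shares are not scaled to the UMIs of all genes. Of these, stromal nuclei held 1516477 of 2023248 at day 7, and macrophage-like nuclei 3035922 of 6868940 in day 3 replicate 2.

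In stromal nuclei as a whole, Igf1 levels were 139, 389, 176, 382, 902 and 524 CPM. The uninjured and day 3 libraries overlapped, and the day 3 change was -0.10 ± 0.46 log2 (SE; edgeR quasi-likelihood test, n = 2 and 2 libraries, Benjamini-Hochberg adjusted p = 0.945 over 9271 genes). Its sign depended on the library left out, from -0.59 to 0.97. The libraries were counted with Cell Ranger 6.0.0 (uninjured replicate 1, days 5 and 7) or 7.1.0 (uninjured replicate 2, day 3). Their count tables also listed different numbers of genes. Both uninjured libraries and day 3 replicate 2 listed 31055, day 3 replicate 1 and day 7 listed 32285, and day 5 listed 32287. Comparisons within a version, here and below, therefore match the number of genes listed only for day 3 replicate 2. Within version 6.0.0, day 5 held 6.51-fold and day 7 3.78-fold the level of uninjured replicate 1. Within version 7.1.0, the day 3 libraries held 0.453-fold and 0.983-fold the level of uninjured replicate 2. For days 5 and 7 there is no replicate check.

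The other ligand gene, Igf2, was not detected in stromal nuclei of the uninjured and day 3 libraries, where 3 UMIs would have been 1.70 to 23.1 CPM, and stood at 20.8 CPM (17.1 to 25.1) at day 5 and 1.98 CPM at day 7. The day 5 library held Igf2 outside stromal nuclei too, at 55.7 CPM (73 UMIs) in the nuclei removed as muscle. Tendon-like nuclei there held 22.1 CPM, macrophage-like 8.79 CPM and endothelial-like 6.53 CPM. Ghr, the growth hormone receptor through which Igf1 is induced in many tissues, held 1016 and 1482 CPM in uninjured stromal nuclei and 387 and 642 CPM at day 3. It fell by 1.38 ± 0.37 log2 (edgeR, adjusted p = 0.0462), a call held in 3 of 14 alternative analyses, and days 5 and 7 were at 1003 and 1135 CPM.

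Igf1r, the signalling receptor, was detected in all 15 named populations. Mean levels ran from 1224 CPM in pericyte-like nuclei (4 libraries) through 1204 CPM in neutrophil-like (2 libraries), 907 CPM in chondrocyte-like (2 libraries) and 740 CPM in SSPC-like nuclei (5 libraries) to 386 CPM in macrophage-like (5 libraries), 221 CPM in osteoclast-like (2 libraries) and 178 CPM in adipocyte-like nuclei (1 library). Pericyte-like and neutrophil-like nuclei shared only 1 library, so their order could not be tested. Neutrophil-like nuclei were uneven, at 1798 CPM in day 3 replicate 2 and 611 CPM at day 5. The 27 nuclei of day 5 also held more Igf1 (453 against 72.5 CPM) and Pappa, the gene of PAPP-A (158 against 24.7 CPM), than the 290 of day 3 replicate 2. Whether RNA of other cells adds to the neutrophil-like values was not tested. When nuclei called as doublets were removed, chondrocyte-like nuclei came next after pericyte-like ones for Igf1r.

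Stromal Igf1r levels were 631, 708, 440, 844, 649 and 753 CPM. The day 3 libraries lay on either side of the uninjured ones, and the change was -0.16 ± 0.36 log2 (edgeR, adjusted p = 0.862). In endothelial-like nuclei the values were 623, 560.1, 278, 533, 415 and 359 CPM, with both day 3 libraries below both uninjured ones, as for 21.1% of genes tested, and the change was -0.62 ± 0.32 log2 (edgeR, adjusted p = 0.357). Pericyte-like nuclei held 1481 and 1456 CPM in the uninjured libraries, 856 CPM (756 to 966) at day 5 and 1104 CPM (822 to 1452) at day 7. Both post-fracture pericyte-like sums with enough nuclei were thus below the uninjured ones. Among other receptors, Insr, the insulin receptor gene, held 146, 183, 82.6, 167, 167 and 188 CPM in stromal nuclei and 1248, 416, 879, 668, 846 and 793 CPM in endothelial-like nuclei. Igf2r, which clears IGF-2, held 30.8 to 87.6 CPM in stromal nuclei. Neither passed the stromal test (edgeR, adjusted p = 0.528 and 0.775).

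Igfbp5 and Igfbp6 are the members that passed the day 3 test, and the 250 bases before their RefSeq start sites (mouse GRCm38.p6, each 5′ to 3′ on the strand of the gene) are shown because both genes were lower at day 3. Igfbp5 lies upstream at chr1:72874866-72875115, minus strand, and Igfbp6 at chr15:102143936-102144185, plus strand. Capitals mark matches, on either strand, to the motifs named after the sequences. The last bases of the Igfbp5 stretch fall inside the longer GENCODE gene model. The Igfbp6 stretch ends before the GENCODE start at 102144362. Distances upstream are therefore those to the RefSeq start sites.
Igfbp5: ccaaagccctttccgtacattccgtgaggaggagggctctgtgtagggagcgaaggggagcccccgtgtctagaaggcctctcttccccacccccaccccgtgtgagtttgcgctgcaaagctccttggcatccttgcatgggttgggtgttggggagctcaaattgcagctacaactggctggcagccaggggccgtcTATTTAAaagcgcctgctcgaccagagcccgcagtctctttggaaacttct
Igfbp6: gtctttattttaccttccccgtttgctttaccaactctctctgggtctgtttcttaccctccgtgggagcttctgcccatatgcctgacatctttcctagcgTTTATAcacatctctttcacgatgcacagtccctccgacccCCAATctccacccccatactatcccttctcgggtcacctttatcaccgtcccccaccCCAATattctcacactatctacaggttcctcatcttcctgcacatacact
All 8 genes matched the RefSeq promoter table. The Igfbp5 stretch has 58.8% G and C and the Igfbp6 stretch 49.6%, against a median of 52.4% over 32851 promoters. The Igfbp5 stretch holds the AT-rich run TATTTAA 51 to 45 bases upstream, a motif chosen after the sequence was seen and present in 4.18% of stretches of this length. The Igfbp6 stretch holds CCAAT at 107 to 103 and at 50 to 46 bases upstream (33.8% of stretches hold it) and TATAAA on the other strand 148 to 143 bases upstream (12.4%). The AP-1 motif TGANTCA (6.75%) was matched in Igf1 and Igfbp2, and CACGTG (6.02%) in Igfbp2. A match is a description of letters, not a binding site, and Igfbp5 and Igfbp6 shared none of these motifs.

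Igfbp5 encodes a binding protein abundant in bone matrix. In stromal nuclei its levels were 539 CPM (420.1 to 681) and 720.1 CPM (674 to 768) in the uninjured libraries, 24.0 CPM (11.0 to 45.5) and 45.4 CPM (36.0 to 56.5) at day 3, 81.4 CPM (73.9 to 89.4) at day 5 and 66.6 CPM (54.2 to 80.9) at day 7. Each of the 4 fracture libraries lay below both uninjured libraries. The day 3 change was -4.22 ± 0.40 log2 (edgeR, n = 2 and 2 libraries, adjusted p = 3.66e-04). Within Cell Ranger 7.1.0, the day 3 libraries were 30.0-fold and 15.9-fold lower than uninjured replicate 2. Within version 6.0.0, days 5 and 7 were 6.62-fold and 8.09-fold lower than uninjured replicate 1. Of these fracture libraries, only day 3 replicate 2 had as many genes listed as the uninjured ones.

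Igfbp6 encodes the binding protein that prefers IGF-2. Its stromal levels were 108 CPM (14 UMIs) and 218 CPM (279 UMIs) in the uninjured libraries, 2.67 CPM (1 UMI) and 7.38 CPM (13 UMIs) at day 3, 8.81 CPM (47 UMIs) at day 5 and 1.98 CPM (3 UMIs) at day 7. Here too the 4 fracture libraries lay below both uninjured ones. The day 3 change was -4.93 ± 0.56 log2 (edgeR, adjusted p = 1.15e-03). Day 3 replicate 2, with over 3 UMIs, was 29.6-fold lower than uninjured replicate 2, and day 5 was 12.2-fold lower than uninjured replicate 1.

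Of the 8 members, 6 passed the filter on low counts in stromal nuclei, 2 of these were lower at day 3 and 0 were higher at an adjusted p of 0.05. Over the 9271 genes tested, 8.38% were called, 4.86% lower and 3.52% higher. Igfbp6, at 2.67 and 7.38 CPM at day 3, passed the filter only through the uninjured libraries, where it was high. A gene admitted in this way could hardly be called higher, so its count among the 6 is no independent support. Without the filter, 8 members were tested, of which 2 were lower and 0 higher. The median day 3 change of the 6 members was -0.13 log2, against 0.02 over all genes tested. Igfbp5 and Igfbp6 were the members with both day 3 libraries below both uninjured ones, which 22.1% of genes showed, and Igfbp7 was the member above, which 28.5% showed.

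**Figure D3:**
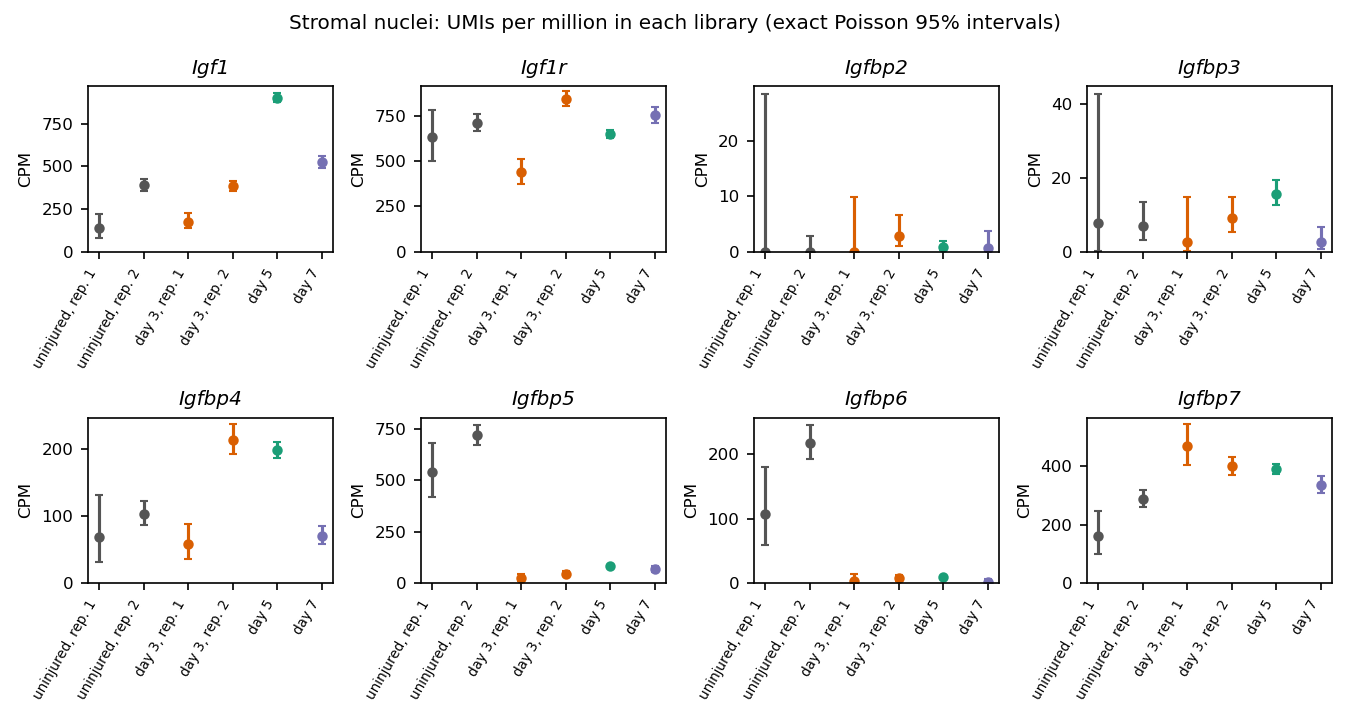
Level of each IGF system gene in stromal nuclei (CPM, vertical axis from 0, with its own scale for each gene) in each of the 6 libraries, with exact Poisson 95% intervals as bars. Igfbp5 drops from 539 and 720.1 CPM in the uninjured libraries to 24.0 and 45.4 CPM at day 3, and Igfbp6 from 108 and 218 CPM to 2.67 and 7.38 CPM.

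The makeup of the stromal nuclei differed between the groups. SSPC-like nuclei made up 38.1% and 31.9% before fracture, 12.0% and 12.8% at day 3, and then 7.78% and 9.21%. IIFC-like nuclei were 1.19% and 1.33%, then 43.5% and 30.5% at day 3. The summed level of the 4 SSPC markers in stromal nuclei was 2356 and 1373 CPM in the uninjured libraries and 56.0 and 96.5 CPM at day 3, with all 4 detected in each library. The SSPC-like nuclei are 1 cluster, and within it the same markers summed to 4725 and 2775 CPM before fracture, 159 and 303 CPM at day 3, 415 CPM at day 5 and 360 CPM at day 7 (4 of 4 detected in each). The name therefore rests on the uninjured nuclei, and the nuclei of this cluster after fracture held less of these markers than the uninjured fibroblast-like nuclei did (470 and 503 CPM). The 6 macrophage markers summed to 7.70 and 14.1 CPM before fracture (1 and 5 of 6 detected) and 197 and 287 CPM at day 3 (6 of 6 detected in both), and the 6 muscle markers to 585 and 721 CPM before and 498 and 344 CPM at day 3. Their part in the stromal result was not tested.

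In fibroblast-like nuclei, Igfbp5 levels were 259 and 438 CPM in the uninjured libraries and 26.2 and 49.0 CPM at day 3, and then 124 CPM at day 5 and 123 CPM at day 7. Igfbp6 levels were 48.7 CPM (3 UMIs) and 198 CPM (111 UMIs), then 0 and 7.55 CPM (6 UMIs) at day 3, 2.61 CPM at day 5 and 3.24 CPM at day 7. The day 3 libraries lay below the uninjured libraries for both genes, as did 22.8% of genes tested, while 24.4% lay above. The changes were -3.18 ± 0.48 log2 for Igfbp5 (edgeR, adjusted p = 5.17e-04) and -4.58 ± 0.79 log2 for Igfbp6 (edgeR, adjusted p = 1.51e-03), and these were 2 of 6 tested members, against 7.92% of 6108 genes tested that were called, 4.99% lower and 2.93% higher. Without uninjured replicate 2, Igfbp5 missed the threshold (-2.67 log2, edgeR adjusted p = 0.0531) and Igfbp6 had too few counts to be tested. Day 3 replicate 1 gave 0 Igfbp6 UMIs, and 3 UMIs there would have been 26.2 CPM. Here too Igfbp6 passed the filter on low counts only through the uninjured libraries, where it was high. Marker levels moved within this population too. The 5 fibroblast markers summed to 4346 and 9384 CPM before fracture and 2354 and 2511 CPM at day 3, the 4 SSPC markers to 470 and 503 CPM and then 70.0 and 71.7 CPM, and the 4 Luzp2+ fibroblast markers to 535 and 615 CPM and then 0 and 22.6 CPM. The 6 osteoblast markers summed to 227 and 274 CPM and then 1662 and 1069 CPM, the 6 IIFC markers to 2059.6 and 3843 CPM and then 4314 and 8379 CPM, and the 6 macrophage markers to 16.2 and 16.0 CPM and then 131 and 233 CPM. Their part in the fibroblast-like result was not tested.

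In the SSPC-like cluster, which had the highest mean Igfbp5 level (486 CPM over 5 libraries), Igfbp5 stood at 904 CPM (677 to 1183) and 1159.6 CPM (1069 to 1256) before fracture, 44.5 CPM (21.3 to 81.8) in day 3 replicate 2, 164 CPM (124 to 214) at day 5 and 156 CPM (83.0 to 266) at day 7. Igfbp6 in the same nuclei stood at 171 and 274 CPM, then 13.3 CPM (3 UMIs), 38.8 CPM and 0 CPM. All fracture libraries with enough SSPC-like nuclei were below both uninjured libraries for both genes, without a test, since only 13 SSPC-like nuclei came from day 3 replicate 1. Those 13 nuclei held 0 UMIs of both genes. Since the SSPC markers were lower in the same libraries, these values do not follow a population of fixed markers. Endothelial-like nuclei held 5.25 and 49.3 CPM of Igfbp5 before fracture and 0 and 17.1 CPM at day 3, which overlapped, and macrophage-like nuclei held 44.96 CPM in uninjured replicate 2 and 4.33 and 15.8 CPM at day 3.

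**Figure D4:**
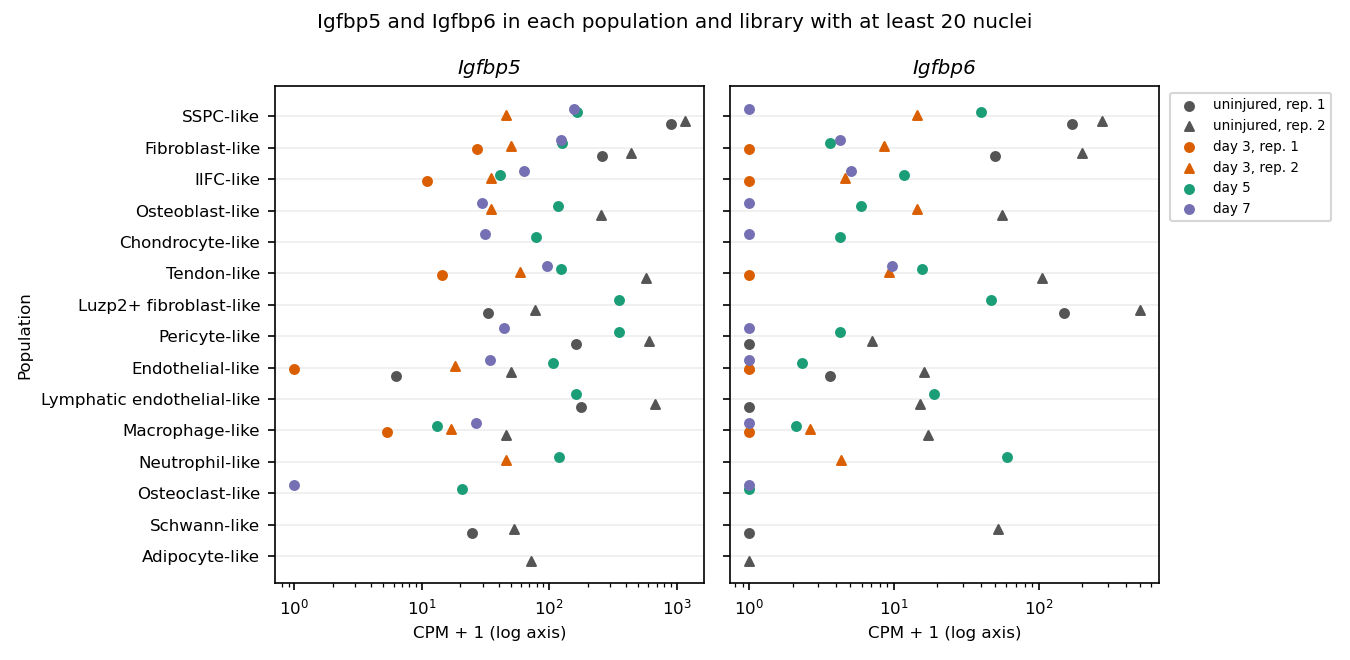
Igfbp5 and Igfbp6 levels (CPM plus 1, logarithmic horizontal axis) by population (vertical axis) for libraries with at least 20 nuclei, 1 symbol per library. In SSPC-like and fibroblast-like nuclei the uninjured libraries lie above every fracture library for both genes.

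Outside the stromal nuclei, Igfbp5 was found in tendon-like nuclei and in vessel-associated populations. Tendon-like nuclei held 575 CPM in uninjured replicate 2 and 13.4 and 58.1 CPM at day 3. Lymphatic endothelial-like nuclei held 177 and 675 CPM before fracture and 162 CPM at day 5. Pericyte-like nuclei held 161 and 605 CPM before fracture, 350.3 CPM at day 5 and 43.3 CPM at day 7. The 9 pericyte-like nuclei of day 3 replicate 2 held 155 Igfbp5 UMIs (2019.4 CPM), which was 42.1% of the Igfbp5 UMIs in clustered nuclei of that library, and the 4 of day 3 replicate 1 held 2 UMIs. The 9 nuclei were under the minimum of 20 and entered no comparison. Endothelial-like nuclei reached 107 CPM (85.2 to 133) at day 5, above both uninjured libraries. SSPC-like exceeded lymphatic endothelial-like nuclei in 3 of 3 shared libraries (exact permutation p = 0.25, the smallest that 3 libraries allow). For Igfbp6, Luzp2+ fibroblast-like nuclei had the highest mean (231 CPM over 3 libraries, with 148 and 498 CPM before fracture and 45.8 CPM at day 5), and they exceeded SSPC-like nuclei (99.4 CPM over 5 libraries) in 2 of 3 shared libraries (exact permutation p = 0.5). Tendon-like nuclei held 105 CPM of Igfbp6 in uninjured replicate 2 and 0 and 8.30 CPM at day 3. Endothelial-like nuclei held 2.63 and 15.2 CPM of it before fracture and 0 CPM in both day 3 libraries, where 3 UMIs would have been 34.7 and 6.42 CPM. Macrophage-like nuclei held 16.3 CPM in uninjured replicate 2 and 0 and 1.65 CPM at day 3. Igfbp6 was thus also lower at day 3 in these sums outside stromal nuclei, but the differences were not tested. The endothelial-like values before fracture rest on 1 and 16 UMIs. The macrophage-like (4 UMIs) and tendon-like (21 UMIs) values rest on 1 uninjured library. Whether RNA of stromal nuclei adds to these levels was not tested.

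Igfbp4, a binding protein that PAPP-A cleaves, was highest in fibroblast-like nuclei (mean 229 CPM over 6 libraries), followed by SSPC-like nuclei (193 CPM over 5 libraries). Fibroblast-like exceeded SSPC-like nuclei in 5 of 5 shared libraries (mean log2 ratio 0.41 ± 0.31 SD; exact two-sided permutation p = 0.0625, the smallest that 5 libraries allow, adjusted p = 0.5). Stromal levels were 69.3, 103, 58.6, 215, 199 and 70.6 CPM. The day 3 libraries lay on either side of the uninjured ones, and the change was 0.50 ± 0.49 log2 (edgeR, adjusted p = 0.661). Fibroblast-like nuclei held 81.1, 153, 149, 323, 452 and 217 CPM, with a change of 0.86 ± 0.45 log2 (edgeR, adjusted p = 0.346). The highest fibroblast-like value was that of day 5.

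Igfbp7 was highest in pericyte-like nuclei (mean 1538 CPM over 4 libraries) and endothelial-like nuclei (1338 CPM over 6 libraries). Pericyte-like nuclei were higher in 2 of 4 shared libraries (exact permutation p = 0.5, with 0.125 the smallest that 4 libraries allow). No difference could thus have passed this test, which leaves their order undecided. In the values below, pericyte-like exceeded endothelial-like nuclei in both uninjured libraries but not at days 5 and 7. Pericyte-like nuclei held 1415 and 1837 CPM before fracture, 1923 CPM at day 5 and 974 CPM at day 7. Endothelial-like nuclei held 226 CPM (181 to 279) and 1032 CPM (972 to 1095) before fracture, 1157 CPM (941 to 1407) and 2381 CPM (2243 to 2526) at day 3, 2247 CPM (2142 to 2356) at day 5 and 985 CPM (815 to 1179) at day 7. Both day 3 libraries lay above both uninjured ones, which 26.9% of the 6555 genes tested did, but the uninjured libraries were far apart. The change was 1.39 ± 0.55 log2 (edgeR, adjusted p = 0.209). Within Cell Ranger 7.1.0 the day 3 libraries held 1.12-fold and 2.31-fold the level of uninjured replicate 2. In stromal nuclei, Igfbp7 levels were 162, 288, 469, 400, 390 and 336 CPM, with every fracture library above both uninjured ones. Both day 3 libraries lay above for 28.5% of genes tested there, and the Igfbp7 change of 0.85 ± 0.39 log2 did not pass the test (edgeR, adjusted p = 0.245). Fibroblast-like nuclei showed 292 and 504 CPM before fracture and 341 and 516 CPM at day 3, which overlapped (0.02 ± 0.43 log2, edgeR, adjusted p = 0.992). Luzp2+ fibroblast-like nuclei had the third highest mean Igfbp7 level, 1014 CPM (3 libraries, 551 to 1801 CPM), or 616 CPM at resolution 0.8.

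Igfbp3, which encodes the main carrier of IGFs in blood, was an endothelial gene in these libraries. Endothelial-like nuclei held 39.4 CPM (15 UMIs) and 33.2 CPM (35 UMIs) before fracture, 11.6 CPM (1 UMI) and 182 CPM (85 UMIs) at day 3, 204 CPM (156 UMIs) at day 5 and 75.1 CPM (9 UMIs) at day 7. The day 3 libraries lay on either side of the uninjured ones, with day 3 replicate 1 resting on 37 nuclei. The change was 1.60 ± 0.65 log2 (edgeR, adjusted p = 0.223), and without day 3 replicate 2 its sign turned, to -1.62. Without day 3 replicate 1 it was 2.12 log2 (edgeR, adjusted p = 9.02e-03). Endothelial-like nuclei held 88.2%, 76.1%, 50%, 62.5%, 55.5% and 56.2% of the Igfbp3 UMIs in clustered nuclei, of which there were only 2 in day 3 replicate 1. The next populations had means of at most 15.6 CPM, and neutrophil-like nuclei were lower than endothelial-like ones in 2 of 2 shared libraries (exact permutation p = 0.5, the smallest possible).

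Igfbp2 was nearly absent. Pericyte-like nuclei of uninjured replicates 1 and 2 held 29.9 CPM (5 UMIs) and 6.05 CPM (2 UMIs), and those of days 5 and 7 held none. Stromal levels were 0, 0, 0, 2.84, 0.750 and 0.659 CPM, so a change was not detectable at this depth. Igfbp2 and Igfbp3 did not pass the filter in stromal nuclei.

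In endothelial-like nuclei, 5 members were tested and 0 were called, against 4.68% of 6555 genes (2.15% higher and 2.53% lower). At an unadjusted p of 0.05, 2 members (Igfbp3 and Igfbp7) passed with edgeR and 0 with DESeq2, which also called 0 after adjustment. Igf1 in endothelial-like nuclei was at 18.4, 105, 11.6, 27.8, 120.1 and 250.4 CPM, and its change of -1.59 ± 0.78 log2 did not pass (edgeR, adjusted p = 0.334). Igfbp4 was at 60.4, 152, 34.7, 89.9, 123 and 58.4 CPM (-0.72 ± 0.51 log2, edgeR, adjusted p = 0.540). The calls for single genes depended on the libraries. Igfbp7 passed without uninjured replicate 2 (2.80 log2, edgeR adjusted p = 6.69e-06) and without day 3 replicate 1 (1.71, adjusted p = 0.0423), and Igf1 passed without uninjured replicate 1 (-2.28, adjusted p = 0.0271). In these nuclei the 6 macrophage markers summed to 13.1 and 27.5 CPM before fracture (2 and 6 of 6 detected) and 116 and 197 CPM at day 3 (4 and 6 of 6), the 5 pericyte markers to 342 and 248 CPM before and 23.1 and 81.4 CPM at day 3, and the 5 endothelial markers to 4151, 4613, 3239 and 4285 CPM. Their part in the endothelial values was not tested.

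Whether the day 3 change differed between stromal and endothelial-like nuclei of the same libraries was tested directly with an interaction term. Of 7 members tested, 0 passed at an adjusted p of 0.05, against 4.49% of 8255 genes (2.14% with a higher and 2.35% with a lower stromal change), while 4 had an unadjusted p under 0.05 with edgeR and 1 with DESeq2, which called 0. The differences, stromal minus endothelial, were -2.80 ± 0.85 log2 for Igfbp5 (edgeR, adjusted p = 0.0521), 1.59 ± 0.50 for Igfbp4 (edgeR, adjusted p = 0.0688) and 1.71 ± 0.56 for Igf1 (edgeR, adjusted p = 0.0804). Igfbp3 differed by -1.89 ± 0.91 (edgeR, adjusted p = 0.366) and Igfbp6 by 1.07 ± 1.66 (edgeR, adjusted p = 0.912). The lower Igfbp5 of stromal nuclei was therefore not shown to differ from the endothelial course at this threshold, although Igfbp5 passed it in 8 of 12 alternative analyses.

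**Figure D5:**
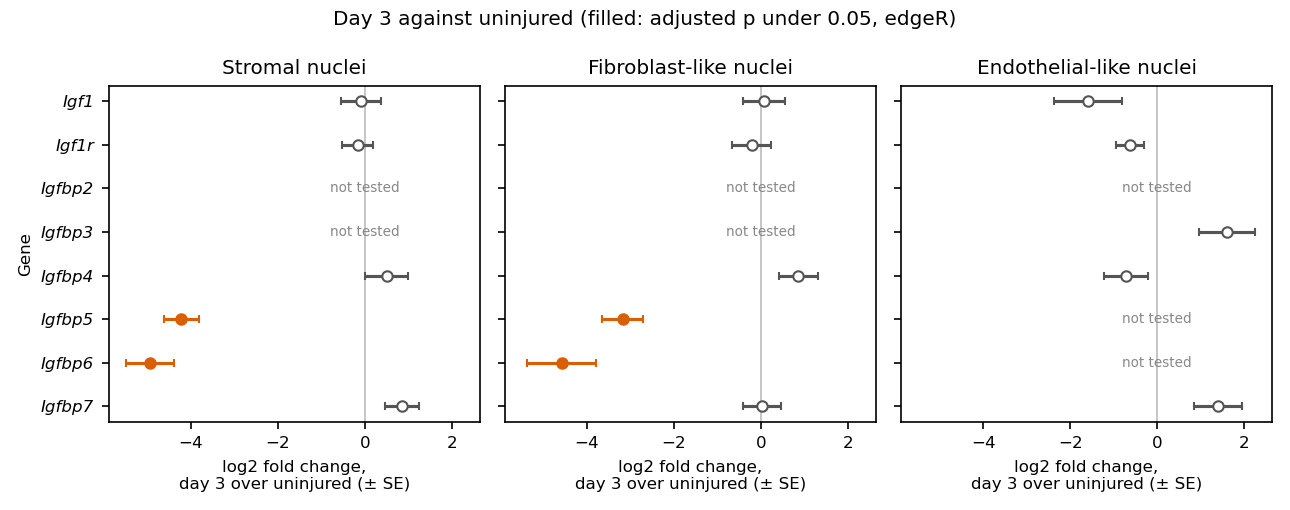
Day 3 minus uninjured log2 fold change of each tested member in stromal, fibroblast-like and endothelial-like nuclei, with bars of 1 standard error (edgeR, 2 libraries a group). Filled symbols mark an adjusted p under 0.05, reached by Igfbp5 and Igfbp6 in stromal (-4.22 and -4.93) and fibroblast-like (-3.18 and -4.58) nuclei.

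The wider pathway was read from a list of 26 genes of IGF supply, binding protein cleavage and signalling, of which 18 were tested in stromal nuclei, with a median change of -0.39 log2 against 0.02 over all genes tested. At day 3, 1 was higher and 3 were lower, against 3.52% and 4.86% of all genes tested. Pappa, which encodes the protease that cuts IGFBP4 and IGFBP5, was the higher one. Stromal levels of Pappa were 185 and 79.0 CPM in the uninjured libraries, 842 and 430 CPM at day 3, 636 CPM at day 5 and 446 CPM at day 7, with all fracture libraries above both uninjured ones. The day 3 change was 2.40 ± 0.54 log2 (edgeR, adjusted p = 0.0219). IIFC-like nuclei held 996 and 452 CPM of it at day 3, and in fibroblast-like nuclei its change of 1.68 ± 0.54 log2 missed the threshold (edgeR, adjusted p = 0.0713). The lower genes were Ghr, Htra1, encoding another secreted protease, and Pik3r1, encoding the regulatory subunit of PI3 kinase. Htra1 fell by 1.92 ± 0.52 log2 (edgeR, adjusted p = 0.0453), a call held in 5 of 14 alternative analyses. Pik3r1 fell by 1.81 ± 0.38 log2 (edgeR, adjusted p = 0.0160), held in 12 of 14, as was Pappa. In fibroblast-like nuclei, Pik3r1 was the 1 pathway gene called (-1.74 log2, edgeR adjusted p = 0.0302), held in 6 of 11 (7.92% of all genes tested were called), and in endothelial-like nuclei 0 of 15 were called (4.68%).

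The likeness of patterns was measured by Pearson's r of log2(CPM + 10) over 54 sums of a population in a library, from 15 populations and against 10576 genes. The sums share libraries, depth and composition, so r is a description. Closest to Igf1 were Prr16 (r = 0.776) and Slc1a3 (r = 0.737). Igfbp3 was closest to Aplnr (r = 0.811), the apelin receptor gene of endothelial cells, and Bdkrb2 (r = 0.784). Igfbp6 was closest to Clec3b (r = 0.80) and Nbl1 (r = 0.780), and Igfbp5 to Casp12 (r = 0.729) and Prkaa2 (r = 0.691). Igfbp7 was closest to Cald1 (r = 0.731), encoding caldesmon, and Ebf1 (r = 0.705). The remaining members had weaker neighbours or few counts, with Arhgef10l (r = 0.635) and Mical1 (r = 0.632) for Igf1r, Rev3l (r = 0.674) and Masp1 (r = 0.626) for Igfbp4, and Tnr and P2rx1 (both r = 0.749) for the nearly absent Igfbp2. Among the members themselves the highest value was 0.56, between Igfbp5 and Igfbp6, and that of Igf1 with Igf1r was -0.10.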

How the data were processed

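Nuclei were sorted with Sytox and sequenced with 10x 3′ v3.1 chemistry in 6 libraries. The authors deposited UMI counts per gene and barcode that were not normalized, made with Cell Ranger 6.0.0 or 7.1.0 (from the matrix headers) on the mm10 mouse genome with intronic and exonic reads. The members and gene lists were chosen with earlier results of these data known.

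A nucleus was kept at 200 to 5000 genes when fewer than 2% of its UMIs were mitochondrial and fewer than 1.5% ribosomal (644, 1182, 753, 1720, 2423 and 1351), and muscle clusters were removed. Scrublet called 0% to 4.04% doublets per library, which were kept. The remainder was integrated by CCA anchors in Seurat 5.3.0 (R 4.3.3) on 2000 features without IGF or pathway genes, and clustered on 20 components at resolution 1.3. A cluster took the name of its best marker list where 3 or more markers were detected, the mean log2 ratio of the markers to the other clusters was at least 2, a limit set after seeing the data, and no other class led its top genes. Names end in "-like" because they were rebuilt here.

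UMI counts were summed per library and population. Day 3 (2 libraries) was tested against uninjured (2 libraries) with edgeR 4.0.16 (filterByExpr, TMM factors, quasi-likelihood test, Benjamini-Hochberg adjustment over all genes tested, threshold 0.05), and the difference between populations with an interaction term. Macrophage-like and pericyte-like nuclei were not tested because a library held fewer than 20 nuclei of each. Populations were ordered with exact sign-flip permutation tests of log2(CPM + 10). The alternatives were DESeq2 1.42.0, RLE factors, no filter, each library left out, no integration, resolution 0.8, IGF genes among the features, relaxed limits on nuclei (under 5% mitochondrial UMIs, no ribosomal limit), doublets removed, and other sets of nuclei. In simulated stromal counts, 167 of 176 genes changed by 3 log2 units were recovered (94.9%), with 11 unchanged genes called among 8721 tested. Genes are named by rule, namely all 8 members, pathway genes called in stromal nuclei, Igf2, Pappa, Insr, Igf2r, and the 2 genes most like each member among those reaching 50 CPM. Python 3.11.15 with scanpy 1.11.5 and scipy 1.17.1 was used. Gene positions come from GENCODE and upstream sequences from RefSeq, both on GRCm38. Libraries of 1499281 to 29796296 UMIs limit low genes: 3 UMIs were 1.70 to 23.1 CPM in stromal sums of the 4 tested libraries.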

Additional observations from a re-analysis of the deposited data

Results flagged for a closer look

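The day 3 change differed between stromal and endothelial-like nuclei for 2 of the 18 tested genes of the pathway list by the interaction term (edgeR, 2 libraries a group). Of all 8255 genes tested, 4.49% were called. For Pappa the difference, stromal minus endothelial, was 2.09 ± 0.60 log2 (adjusted p = 0.0381), and stromal levels were 185 and 79.0 CPM before fracture and 842 and 430 CPM at day 3, against 13.1 and 43.6 CPM and 69.4 and 32.1 CPM in endothelial-like nuclei. For Pik3r1 it was -2.67 ± 0.42 log2 (adjusted p = 5.88e-05). The Pappa call held in 9 of 12 alternatives (edgeR or DESeq2 adjusted p from 5.17e-05 to 1) and that of Pik3r1 in 12 of 12 (1.26e-07 to 2.42e-03).

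Members were also read in the nuclei removed as muscle, 180 to 527 per library. The members below were picked because 3 or more fracture libraries had a 95% interval above those of both uninjured libraries. These intervals cover counting error only, and those of the uninjured libraries did not overlap each other for any of these members. How many of all genes meet this rule was not computed, so the values do not set these members apart from other genes. Igf1r held 301 and 425 CPM before fracture and 526 and 536 CPM in the day 3 libraries and 775 CPM at day 5, while day 7 at 468 CPM (415 to 525) overlapped uninjured replicate 2 (398 to 453). Igfbp5 held 15.6 and 106 CPM before fracture, 389 CPM in day 3 replicate 2, 639 CPM at day 5 and 199 CPM at day 7, but 40.5 CPM in day 3 replicate 1. Igfbp7 held 5.20 and 21.4 CPM before fracture, 46.0 CPM in day 3 replicate 2, 98.5 CPM at day 5 and 85.6 CPM at day 7. In day 3 replicate 1 it held 6.96 CPM. None of these differences was tested.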

How the results depend on the processing

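The stromal calls of Igfbp5 and Igfbp6 were kept in 13 of 14 and 14 of 14 alternatives, and Igfbp5 missed the threshold when all nuclei were used (-2.81 log2, edgeR adjusted p = 0.0565). In fibroblast-like nuclei they were kept in 10 of 11 and 10 of 10. The population with the highest mean level was the same in 48 of 48 comparisons. The ratio to the population that came next kept its side in the 42 comparisons in which both had enough nuclei in a shared library, and in the other 6 (4 without integration, 2 with doublets removed) it could not be computed. With a minimum of 10 nuclei, adipocyte-like nuclei came next for Igf1, and fibroblast-like nuclei were higher in 0 of 2 shared libraries (mean log2 ratio -0.98).

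The number of genes called moved to 232 in fibroblast-like nuclei with DESeq2, 663 in endothelial-like nuclei without a filter and 107 in the interaction with DESeq2. With each library left out it ranged from 498 to 984 (stromal), 156 to 634 (fibroblast-like), 288 to 469 (endothelial-like) and 151 to 404 (interaction). The share of higher calls was 41.96% in stromal nuclei, 51.4% without a filter and 30.5% over all nuclei. The number of members called became 1 in stromal nuclei with all nuclei and 1 in endothelial-like nuclei without a filter. In the interaction it became 1 with RLE factors, no filter, no integration, resolution 0.8, IGF genes among the features and relaxed limits, and 3 with doublets removed. With libraries left out it ranged from 0 to 2 in the fibroblast-like, endothelial-like and interaction tests.

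Values of uncalled members turned sign as follows, and the cause was not tested. In stromal nuclei, Igf1 was 0.0257 without a filter, 0.41 without integration, 1.14e-04 at resolution 0.8, 0.16 with relaxed limits, 0.21 with all nuclei, 0.69 with tendon-like and Luzp2+ clusters added, and -0.59 to 0.97 with libraries left out. With all nuclei, Igfbp7 was -0.68 and Igfbp4 -0.61. With libraries left out, stromal Igf1r ran from -0.44 to 0.20 and Igfbp4 from -0.46 to 1.09. In fibroblast-like nuclei, Igf1 was -0.33 at resolution 0.8, -0.0879 with IGF genes among the features, -0.0223 with relaxed limits, -0.0540 with doublets removed and -0.45 to 1.16 with libraries left out, Igfbp7 -0.30 to 0.56 and Igf1r -0.60 to 0.14. With libraries left out, endothelial-like Igf1 ran from -2.48 to 0.13, Igfbp3 from -1.62 to 2.12 and Igfbp4 from -1.65 to 0.0425. In the interaction, the same gave -4.89 to 2.49 for Igfbp5, -1.28 to 0.35 for Igfbp7, -2.02 to 0.49 for Igfbp3 and -0.29 to 1.62 for Igfbp6, which was -1.72 with DESeq2 and -2.63 with relaxed limits.

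No paired analysis was possible because the replicate numbers were given in accession order and pair no libraries. Where a library was left out, the lone library of its group was assumed to vary like the other group. The fibroblast-like test was not run without integration. With 2 libraries a group and 37 endothelial-like nuclei in day 3 replicate 1, low members such as Igfbp2 and Igfbp3 were limited by depth.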
